A study of Mus musculus with 8 samples.

Results

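The antiviral genes that type I interferons switch on were followed as 1 group of 38 genes in mouse splenic T cells. The group was set by gene symbol: Ifit1 to Ifit3, Ifitm1 to Ifitm3, Oas1a, Oas2, Oas3, Oasl1, Oasl2, Mx1, Mx2, Isg15, Usp18, Herc6, Ubd, Ddx58, Ifih1, Dhx58, Zbp1, Eif2ak2, Adar, Rsad2, Cmpk2, Isg20, Samhd1, Bst2, Parp9, Dtx3l, Parp14, Trim21, Trim25, Rtp4, Ifi35, Ifi44, Ifi47 and Xaf1. No threshold on measured values entered that choice, but it was made with earlier results of these data known. Of the 38 genes, 36 were among the 15139 genes tested, each by its brightest probe named through a RefSeq transcript accession, and all 36 probes were well above background on every array. Mx1 and Mx2 had no probe matched by accession and were not analysed here.

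Each of 8 one-colour Agilent arrays carried the Cy3-labelled RNA of 1 T cell sample. The 4 groups of 2 arrays were wild-type cells (WT) in medium, Lsp1-deficient cells (KO) in medium, and cells of both genotypes kept for 6 h with anti-CD3 and anti-CD28, antibodies that trigger the antigen receptor of T cells and its main costimulator. Lsp1 encodes a leukocyte protein that binds actin filaments, and the series was concerned with its role in how T cells migrate in arthritis. KO mice (Lsp1-/-) had been backcrossed to C57BL/6 for 10 generations, the controls were C57BL/6 mice (Lsp1+/+) matched for age and sex, and the mice were 8 to 12 weeks old unless the study specified otherwise. The labels do not say whether the T cells of 2 arrays came from separate animals, so p-values reflect only how far these samples spread, and that spread may be technical.

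Type I interferons are antiviral cytokines that most cell types can both make and sense. They bind a receptor of Ifnar1 and Ifnar2 chains, whose kinases Jak1 and Tyk2 activate a transcription factor complex. That complex, which includes Stat2 and Irf9, binds interferon-stimulated response elements (ISREs) before the target genes. The targets encode sensors of foreign nucleic acid, enzymes that degrade or edit RNA, proteins that block viral entry or budding, and feedback inhibitors. In T cells, interferon gamma released on activation acts through gamma-activated sequences (GAS) and shares part of this target set.

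Since most of the group moved together on stimulation, the sequence before the gene starts is shown for 3 members whose values recur below. RefSeq promoter windows (assembly GRCm38.p6, 250 bases before to 50 after a gene's start) existed for 29 of the 38 members. Each stretch is the 250 bases before the start, written 5′ to 3′ on the gene's strand, and capitals mark the core of an ISRE, GAAA, any 2 bases (NN), GAAA, on either strand (TTTC, NN, TTTC where it lies on the other strand). The Ifit1 stretch covers chr19:34640639-34640888 on the plus strand, that of Ifit3 chr19:34583279-34583528 on the plus strand, and that of Isg15 chr4:156200819-156201068 on the minus strand.
Ifit1: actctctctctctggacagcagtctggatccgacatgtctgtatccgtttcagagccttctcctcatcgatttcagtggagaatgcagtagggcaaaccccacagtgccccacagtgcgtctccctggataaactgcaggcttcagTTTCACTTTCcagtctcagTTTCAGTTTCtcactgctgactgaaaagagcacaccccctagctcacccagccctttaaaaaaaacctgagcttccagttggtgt
Ifit3: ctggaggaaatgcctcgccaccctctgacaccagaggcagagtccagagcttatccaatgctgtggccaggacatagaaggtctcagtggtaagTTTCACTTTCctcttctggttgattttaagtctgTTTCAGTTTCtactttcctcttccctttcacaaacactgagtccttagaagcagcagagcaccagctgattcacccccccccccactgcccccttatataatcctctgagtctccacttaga
Isg15: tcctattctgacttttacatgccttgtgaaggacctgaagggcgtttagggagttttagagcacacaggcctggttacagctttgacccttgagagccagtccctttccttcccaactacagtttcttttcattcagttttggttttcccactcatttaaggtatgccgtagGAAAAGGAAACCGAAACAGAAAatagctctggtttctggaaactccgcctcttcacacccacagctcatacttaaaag

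Ifit1 and Ifit3 each held 2 matches, which began 104 and 85 bases before the start in Ifit1 and 156 and 122 bases before it in Ifit3. Both genes carry the same pair of cores, GAAAGTGAAA farther from the start and GAAACTGAAA nearer to it, each on the strand opposite to the gene. Isg15 held 3 matches that overlap one another and begin 78, 72 and 66 bases before the start. For 3 other members with values below, 1 match each is shown in a 30-base window, from chr5:120777715-120777744 (Oas3), chr5:120907520-120907549 (Oas1a) and chr12:26456553-26456582 (Rsad2), all 3 genes on the minus strand; Oas1a holds 1 more match that overlaps the one in capitals.
Oas3: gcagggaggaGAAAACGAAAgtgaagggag
Oas1a: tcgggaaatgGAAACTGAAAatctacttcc
Rsad2: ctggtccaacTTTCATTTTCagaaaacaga

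Searching both strands of whole windows and allowing overlaps, the ISRE core occurred for 13 of the 29 members (44.8%) and for 3.99% of 27025 genes with a window. The members with a match were Ifit1, Ifit3, Ifitm2, Ifitm3, Oas1a, Oas3, Isg15, Ddx58, Ifih1, Eif2ak2, Rsad2, Bst2 and Trim21. The letters TTCNNNGAA, a GAS pattern that reads alike on both strands, occurred for 9 of the 29 members (31.0%) and for 9.55% of all genes. A match is a description of the letters, and a window without one says only that these letters are not in it. Dhx58, Mx1, Mx2, Oas2, Parp9, Parp14, Rtp4, Usp18 and Zbp1 had no window in the table. On stimulation the median log2 difference in WT cells was 1.20 over the 13 members with the ISRE letters and 1.34 over the 16 without them, and 10 of the 13 and 9 of the 16 rose, so the members with the letters did not have the larger median. The 7 measured members without a window all rose.

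Lsp1 itself checked the labels. Its log2 signal, given here and below relative to the array's 75th percentile, was 7.48, 7.24, 7.06 and 6.99 on the WT arrays and 3.64, 3.48, 3.69 and 3.65 on the KO arrays. The share of probes well above background ranged from 58.4% to 69.2% over the arrays, and the 75th percentile of the linear signal lay between 1200.5 and 1469. All 14 T cell markers were well above background on all arrays, and so were all 12 B cell, 10 natural killer cell and 8 plasmacytoid dendritic cell markers. Both KO arrays of replicate 2 stood apart from the other 6 arrays. There the 12 measured neutrophil markers had a median log2 difference of 4.27 in medium and 3.96 after stimulation from the WT mean of the same condition, against -0.09 and -0.05 on the KO arrays of replicate 1. An exact permutation test of 2 arrays against 2 cannot go below p = 0.333, so limma was used, whose estimate of spread draws on all genes and groups.

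Most of the group rose on stimulation in both genotypes. In WT cells 26 of the 36 members rose and none fell (limma, Benjamini-Hochberg adjusted p below 0.05), where 6.42% of all 15139 genes rose and 3.84% fell. Their median log2 difference was 1.50, against -0.09 over all genes, and 35 of 36 values were positive. In KO cells 26 of 36 members rose and none fell, where 5.85% of all genes rose and 2.27% fell, with a median of 1.47 against -0.08. The same 26 members were called in both genotypes, and the 10 that did not pass in either were Ifit2, Ifitm1, Ifitm2, Ifitm3, Oasl1, Adar, Rsad2, Cmpk2, Isg20 and Trim25. The fit shares 1 spread per gene over all 4 groups, so a wide spread between KO arrays also widens the WT test. When the 4 WT arrays were fitted alone, 29 members were called, where 2713 of all 15139 genes were called in either direction. A further probe was present for 12 members, and its sign was that of the first probe for 12 of 12 on stimulation in both genotypes. The number called in WT cells fell to 13 without WT medium replicate 1 or without either stimulated WT array, and to 15 without WT medium replicate 2. In KO cells it was 17 without KO medium replicate 2, and 0 when the 4 KO arrays were fitted alone, with the median unchanged at 1.47.

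**Figure D1:**
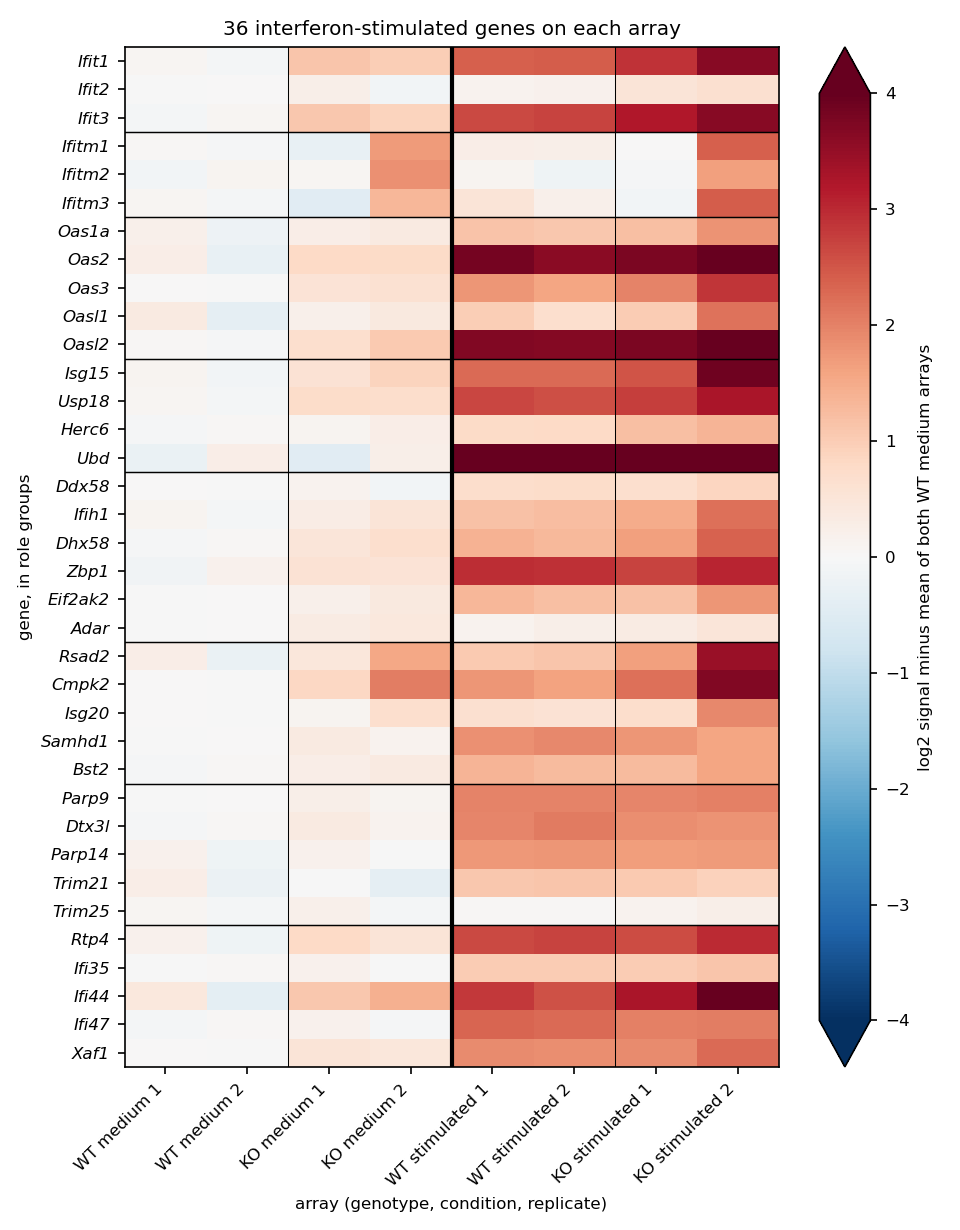
Heat map of the 36 members (rows, in role groups) on the 8 arrays (columns), coloured by log2 signal minus the mean of both WT medium arrays. The 4 stimulated arrays on the right are warm for most genes, the 3 Ifitm genes are high on both KO arrays of replicate 2 alone, and values above 4, such as Ubd on every stimulated array, share the darkest colour.

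**Figure D2:**
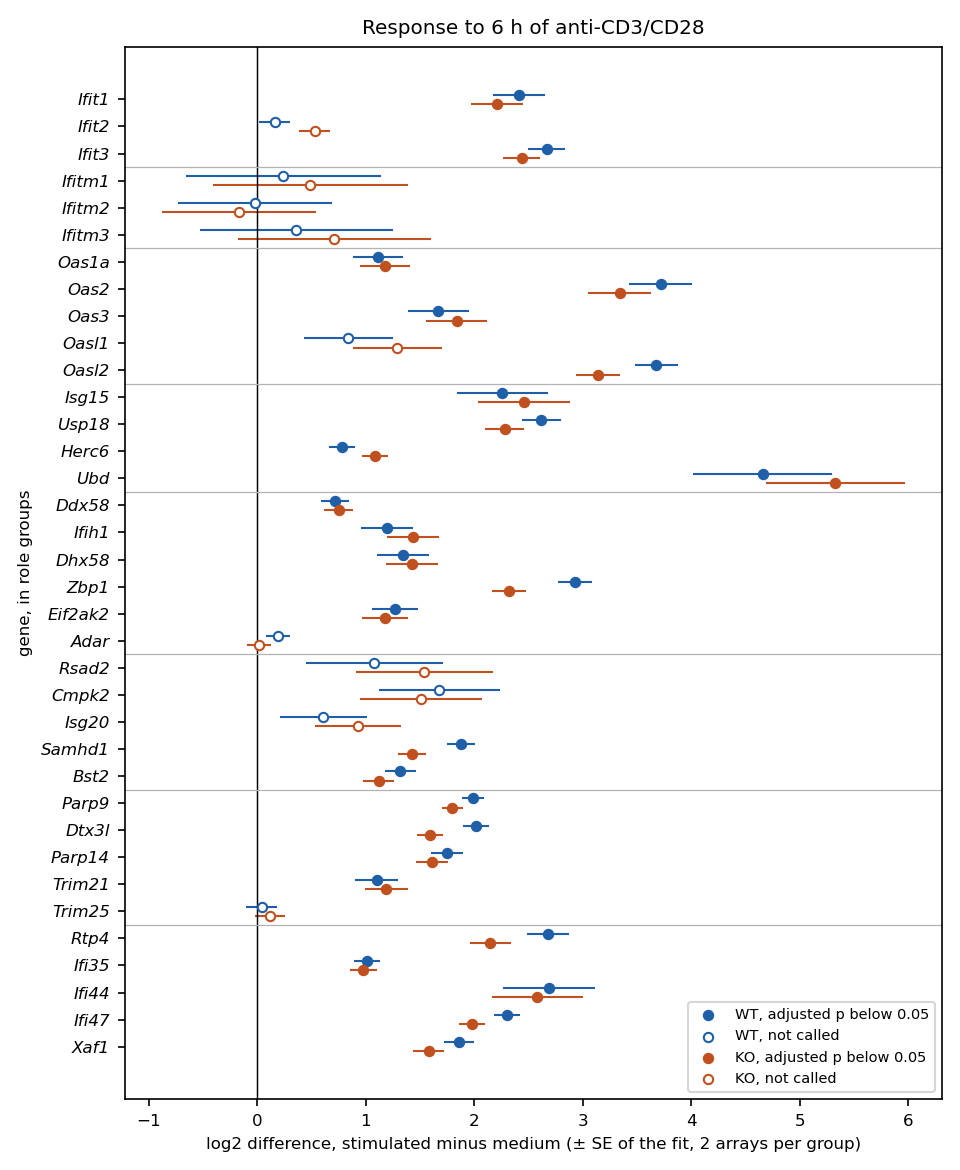
Log2 difference of stimulated minus medium cells for each member in WT (blue) and KO (orange), with bars for the standard error of the fit over 2 arrays per group; filled points passed the adjusted p of 0.05. Ubd, Oas2 and Oasl2 lie farthest to the right, and the Ifitm genes have the widest bars.

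The IFIT proteins bind foreign RNA and block its translation. Ifit3 lay at 0.66 and 0.80 on the WT medium arrays and at 3.38 and 3.42 on the stimulated ones, and in KO cells at 1.81 and 1.61 in medium and 3.93 and 4.37 after stimulation. It was thus highest on both stimulated KO arrays, and each group was clear of the others. It rose by a log2 difference of 2.67 ± 0.17 (standard error of the fit, 2 arrays per group; adjusted p = 0.0012) in WT and 2.44 ± 0.17 (adjusted p = 0.00153) in KO cells. Ifit1 followed the same order of groups, with -0.30 and -0.47 for WT and 0.74 and 0.61 for KO cells in medium, then 2.02 and 2.04 for WT and 2.51 and 3.26 for KO cells after stimulation. Its rise was 5.32-fold in WT and 4.63-fold in KO cells. Ifit2, by contrast, stayed between 1.03 and 1.78 on all 8 arrays and did not pass the test in either genotype (0.16 ± 0.14 in WT, 0.53 ± 0.14 in KO). Its highest values, 1.67 and 1.78, were those of the stimulated KO arrays.

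The IFITM proteins sit in membranes and hinder the fusion of viruses with the cell. None of the 3 passed the test on stimulation, and their standard errors, 0.71 to 0.90, were wider than those of all other members. Ifitm3 lay at 1.22 and 1.06 in WT medium and at 1.65 and 1.34 in stimulated WT cells, but at 0.70 and 2.46 in KO medium and at 1.03 and 3.55 in stimulated KO cells. Ifitm1 was at 1.29 and 3.29 in KO medium and at 1.59 and 3.98 in stimulated KO cells, against 1.54 to 1.83 on the 4 WT arrays. Ifitm2 was at 0.81 and 2.54 and at 0.66 and 2.36 on the KO arrays, against 0.56 to 0.84 on the WT arrays. For all 3 genes, the replicate 2 arrays of the KO were the high ones in both conditions, and the replicate 1 arrays lay within or below the WT values. Those are the arrays on which the neutrophil markers were high, and the part of other cells in the IFITM signal was not tested.

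The oligoadenylate synthetases make short adenylate chains that switch on the ribonuclease RNase L. Of the 5 measured members of this family, 4 rose in each genotype. Oas2 had the largest rise, from -0.19 and -0.76 in WT medium to 3.36 and 3.13 after stimulation, a difference of 3.72 ± 0.29 or 13.2-fold (limma, adjusted p = 0.00207). In KO cells it lay at 0.32 and 0.31 in medium and at 3.28 and 4.03 after stimulation, a difference of 3.34 ± 0.29. Oasl2, an OAS-like protein, rose 12.8-fold in WT and 8.80-fold in KO cells, from 0.00 and -0.12 to 3.63 and 3.62 and from 0.61 and 0.98 to 3.71 and 4.16. Its WT arrays therefore lay lower in medium while the groups came close together after stimulation. Oas1a (1.11 ± 0.23 in WT, 1.18 ± 0.23 in KO) and Oas3 (1.67 ± 0.28 and 1.84 ± 0.28) also rose. Oasl1, at 1.56 to 2.31 in medium and 2.60 to 4.09 after stimulation, did not pass (0.84 ± 0.41 and 1.29 ± 0.41).

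All 4 genes of the ubiquitin-like modifiers and their enzymes rose in both genotypes. Ubd encodes a ubiquitin-like protein that marks others for the proteasome and showed the largest difference of the group. Its values went from -5.0 and -4.44 in WT medium to 0.03 and -0.17, and in KO cells from -5.16 and -4.49 to -0.49 and 1.51. The rise was 25.2-fold in WT (4.66 ± 0.64, adjusted p = 0.0122) and 40.4-fold in KO cells (5.33 ± 0.64, adjusted p = 0.00814), and the 2 stimulated KO arrays lay on either side of the WT ones. The size of the rise depended on the processing and the arrays kept. Over the alternatives its log2 difference ranged from 3.56 to 4.94 in WT and from 4.09 to 6.34 in KO cells. Isg15, the modifier attached to many proteins during an interferon response, went from 2.73 and 2.52 to 4.88 and 4.90 in WT and from 3.20 and 3.52 to 5.13 and 6.52 in KO cells. The replicate 2 array of stimulated KO cells was the highest of all. Usp18, which removes Isg15 and restrains the interferon receptor, rose by 2.62 ± 0.18 and 2.28 ± 0.18, from 0.77 and 0.61 to 3.37 and 3.26 in WT and from 1.42 and 1.40 to 3.44 and 3.95 in KO cells. Herc6, an Isg15 ligase in mice, rose less, by 0.78 ± 0.12 and 1.09 ± 0.12.

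Among the sensors of nucleic acid, 5 of 6 rose in each genotype. Zbp1, a sensor of left-handed nucleic acid that can start cell death, rose 7.61-fold in WT and 4.99-fold in KO cells. In medium it was at 1.59 and 1.90 in WT but 2.31 and 2.29 in KO cells, and after stimulation at 4.70 and 4.65 in WT and 4.45 and 4.79 in KO cells. KO values were thus clear of WT values in medium and on either side of them after stimulation. The cytosolic RNA sensors Ddx58 (0.72 ± 0.13 in WT, 0.75 ± 0.13 in KO) and Ifih1 (1.20 ± 0.24 and 1.44 ± 0.24), their regulator Dhx58 (1.34 ± 0.24 and 1.43 ± 0.24) and Eif2ak2, the RNA-activated kinase that halts translation (1.27 ± 0.21 and 1.18 ± 0.21), all rose. Adar, an RNA-editing enzyme with interferon-driven and constant promoters, lay between 3.83 and 4.31 on all 8 arrays and did not pass by its brightest probe (0.19 ± 0.11 in WT). A further Adar probe gave 0.69 in WT (limma, adjusted p = 0.0473) and 0.58 in KO cells (adjusted p = 0.0846), so the 2 probes disagreed on the call in WT cells.

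Of the effectors on nucleotides, RNA and budding, 2 of 5 rose. Samhd1, which hydrolyses deoxynucleotides, rose by 1.88 ± 0.13 in WT and 1.43 ± 0.13 in KO cells, from 5.56 and 5.58 to 7.40 and 7.50 and from 5.93 and 5.71 to 7.33 and 7.16. Bst2, which tethers budding virions to the cell, rose by 1.32 ± 0.14 and 1.12 ± 0.14. Rsad2 (viperin), which makes a chain-terminating nucleotide, went from -1.32 and -1.83 to -0.51 and -0.47 in WT and from -1.11 and -0.02 to 0.06 and 1.89 in KO cells. The WT groups did not overlap, but the 2 KO arrays of a condition lay far apart. That spread enters the standard error of 0.63 in both genotypes, and the differences of 1.08 in WT and 1.54 in KO cells did not pass. Cmpk2, a mitochondrial nucleotide kinase, showed the same spread, going from -1.73 and -1.79 to 0.00 and -0.15 in WT and from -0.93 and 0.28 to 0.43 and 1.93 in KO cells. Its difference was 1.68 ± 0.56 in WT and 1.51 ± 0.56 in KO cells, and that of Isg20, an RNA exonuclease, was 0.61 ± 0.40 and 0.93 ± 0.40; neither passed.

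Of the PARP and ubiquitin ligase genes, 4 of 5 rose in each genotype. Parp9 and Dtx3l, whose products act as partners, lay at 4.73 to 4.78 and at 4.82 to 5.10 on the 4 stimulated arrays, against 2.77 to 3.0 and 2.97 to 3.38 on the 4 medium arrays. Parp9 rose by 1.99 ± 0.10 in WT (limma, adjusted p = 0.000599) and 1.80 ± 0.10 in KO cells (adjusted p = 0.000891), the smallest adjusted p of the group in each genotype. Dtx3l rose by 2.02 ± 0.12 and 1.59 ± 0.12, Parp14 by 1.75 ± 0.15 and 1.61 ± 0.15, and the antibody receptor and ligase Trim21 by 1.1 ± 0.20 and 1.19 ± 0.20. Trim25, a ligase that activates the sensor encoded by Ddx58, stayed between 4.98 and 5.30 on all arrays (0.04 ± 0.14 and 0.12 ± 0.14, not passed).

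All 5 remaining members rose. Ifi44 went from -2.62 and -3.43 to -0.20 and -0.47 in WT and from -1.96 and -1.61 to 0.25 and 1.34 in KO cells, a rise of 6.45-fold and 5.97-fold. Rtp4, a chaperone known to restrict RNA viruses, went from 2.86 and 2.54 to 5.34 and 5.41 in WT and from 3.51 and 3.20 to 5.32 and 5.69 in KO cells. Stimulated values of both genotypes overlapped for Rtp4, while its medium values did not. Xaf1, a promoter of cell death, rose by 1.86 ± 0.14 and 1.58 ± 0.14, and Ifi35 by 1.01 ± 0.12 and 0.98 ± 0.12. Ifi47, a GTPase also known for induction by interferon gamma, rose by 2.30 ± 0.12 and 1.98 ± 0.12, from 5.0 and 5.13 to 7.40 and 7.34 and from 5.23 and 5.02 to 7.09 and 7.11.

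In medium, most members lay higher on the KO arrays than on the WT arrays, although no single member passed the test. The median log2 difference of KO minus WT was 0.40, against -0.06 over all genes, and 34 of 36 values were positive. Both KO arrays lay above both WT arrays for 24 members and below them for 0, where 12.8% of all genes had both KO arrays above and 21.3% had both below. None of the 36 was called (limma, smallest adjusted p = 0.527), where 0.00661% of all genes were called, that is 1 gene, Lsp1 itself. At an unadjusted p below 0.05 there were 11 members (30.6%), all higher in KO cells, against 5.71% of all genes. In a bulk sample, more cells of a type and more RNA per cell cannot be told apart.

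The 8 members with the smallest p in medium were Ifit3, Ifit1, Oasl2, Usp18, Rtp4, Adar, Zbp1 and Xaf1. Their values on each array, given above for all but 2 of them, showed no overlap between genotypes. Ifit3 differed by 0.98 ± 0.17, with KO arrays at 1.08 and 0.88 above the WT mean, and Ifit1 by 1.06 ± 0.24, with KO arrays at 1.12 and 1.0 above it. For Ifit3 and Ifit1 both KO arrays were raised to a like degree. Picking genes by the p of this comparison favours such closeness and lack of overlap, so neither speaks for the other members. Adar was at 3.83 and 3.84 on the WT arrays and at 4.17 and 4.27 on the KO arrays, and Xaf1 at 1.30 and 1.25 against 1.80 and 1.72. By a further probe the difference in medium was 0.14 for Adar, against 0.38 by its brightest, 0.28 against 0.49 for Xaf1 and 0.31 against 0.56 for Zbp1. Over the 12 members with a further probe, the signs of both probes matched for 12 in medium, 11 after stimulation, 10 averaged over conditions and 8 for the genotype difference in response. The role groups were unequal: the median difference in medium was 0.98 for the IFIT genes, 0.58 for the OAS family and 0.07 for the PARP and ligase genes. Trim21 (-0.20 ± 0.20) and Ubd (-0.10 ± 0.64) were the members with a negative value, and that of Ubd turned positive, at 0.01 to 0.04, under each of the other scalings and background corrections tried.

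After stimulation the median difference of KO minus WT was again 0.40, against -0.04 over all genes, and 29 of 36 values were positive. Both KO arrays lay above both WT arrays for 19 members, where 13.2% of all genes had them above, and below both for 5 members (Samhd1, Dtx3l, Parp14, Trim21 and Ifi47), where 24.8% of all genes had them below. None of the 36 was called (limma, smallest adjusted p = 0.488), where 0.0198% of all genes were called, and 8 members (22.2%) had an unadjusted p below 0.05, all higher in KO cells, against 5.03% of all genes. The 8 were Ifit3 (0.75 ± 0.17), Herc6 (0.49 ± 0.12), Ifit1 (0.86 ± 0.24), Ifit2 (0.42 ± 0.14), Dhx58 (0.66 ± 0.24), Oas3 (0.75 ± 0.28), Ifi44 (1.13 ± 0.42) and Ifih1 (0.64 ± 0.24).

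Array by array, the 8 genes were not raised alike. Herc6 was at 0.49 and 0.53 on the stimulated WT arrays and at 0.92 and 1.07 on the KO arrays. Dhx58 was at 1.11 and 1.0 against 1.35 and 2.07, Oas3 at 0.00 and -0.17 against 0.22 and 1.1, and Ifih1 at 1.61 and 1.69 against 1.94 and 2.66. The replicate 2 array of the KO was the higher one for each of these genes. Over the group, replicate 2 exceeded replicate 1 in stimulated KO cells for 33 of 36 members (91.7%), against 46.4% of all genes. The spread between the 2 arrays (root mean square SD, log2) was 0.702 for stimulated KO cells, against 0.0908 for stimulated WT cells, and 0.454 for KO against 0.208 for WT cells in medium. Over all genes it was 0.454 for stimulated KO cells and 0.25 for stimulated WT cells, and 0.431 and 0.253 in medium.

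**Figure D3:**
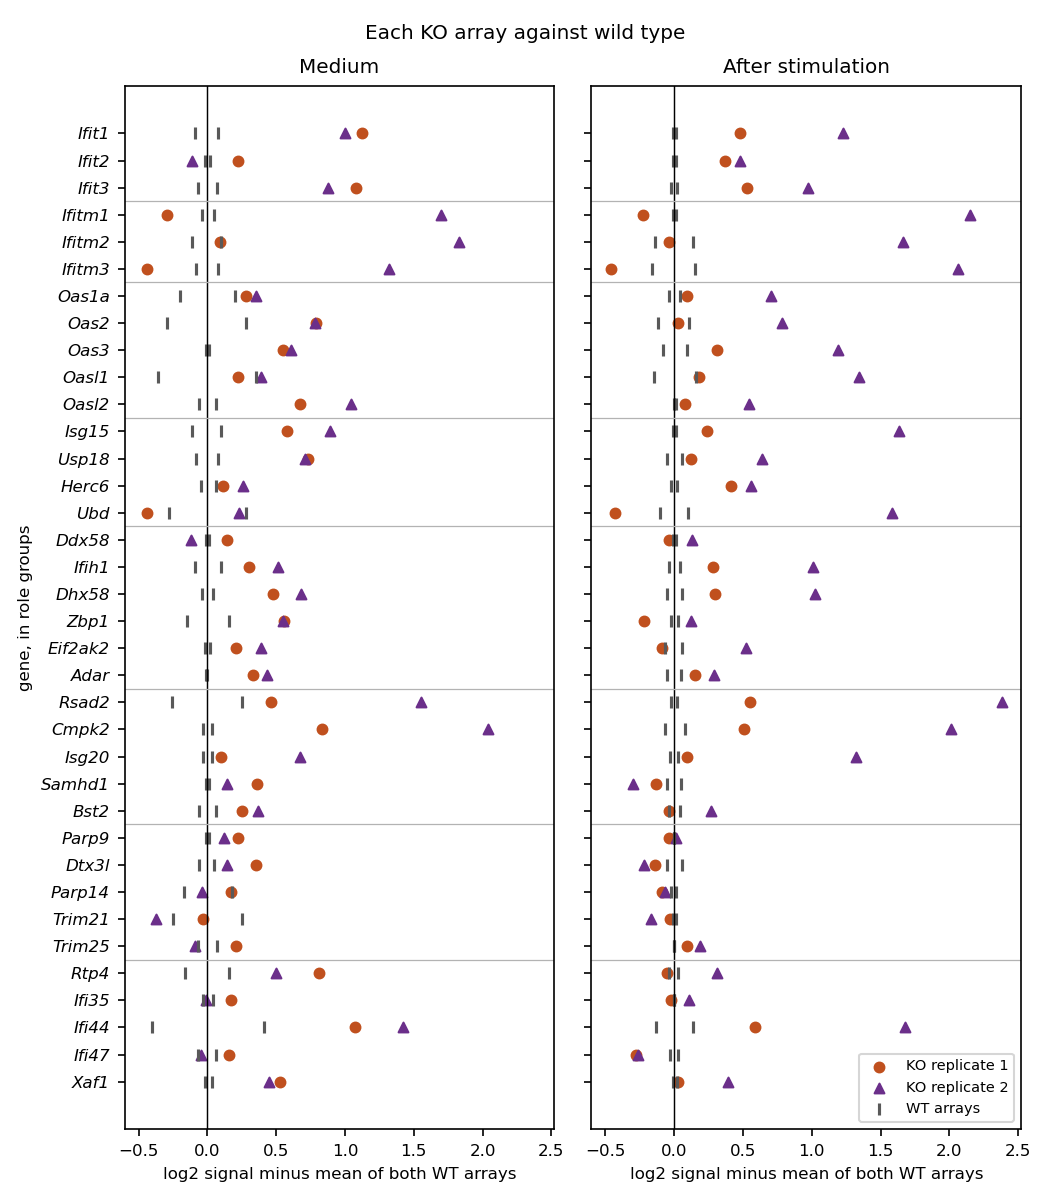
Log2 signal of each KO array (circles, replicate 1; triangles, replicate 2) and each WT array (grey ticks) minus the mean of both WT arrays, for every member in medium (left) and after stimulation (right). In medium both KO arrays of Ifit1 and Ifit3 lie near 1, whereas after stimulation most circles lie near 0 and most triangles to the right.

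Markers of neutrophils, of erythroid cells and platelets, and of monocytes were high on both KO arrays of replicate 2 but not on those of replicate 1. The 5 measured markers of conventional dendritic cells went the same way but less far. Their medians on replicates 1 and 2 were -0.08 and 0.65 in medium and -0.10 and 0.33 after stimulation, relative to the WT mean. The lists for T cells, B cells, natural killer cells and plasmacytoid dendritic cells did not follow that pattern. Relative to the WT mean, the median of the members was 0.29 on KO medium replicate 1 and 0.47 on replicate 2, and 0.06 and 0.60 on the stimulated KO arrays. The 12 neutrophil markers were at -0.09 and 4.27 in medium and -0.05 and 3.96 after stimulation. Their summed level was 172 to 256 on the other 3 medium arrays and 784 on KO replicate 2 (linear signal over the 75th percentile), and 144 to 152 against 446 after stimulation. The 10 erythroid and platelet markers were at -0.52 and 1.79 in medium and -0.49 and 2.26 after stimulation, and the 10 monocyte and macrophage markers at -0.03 and 1.23 and at 0.13 and 1.12. B cell markers were below the WT mean on all 4 KO arrays (-0.48, -0.75, -0.71 and -0.67), and so were natural killer cell markers (-0.44, -0.62, -0.37 and -0.45). T cell markers were at 0.09 and -0.37 in medium and -0.04 and -0.29 after stimulation. Markers of plasmacytoid dendritic cells, which are known as strong producers of type I interferon, had medians between -0.07 and 0.04 on the 4 KO arrays. The 2 WT medium arrays were at 0.26 and -0.26. Single markers of that list had KO minus WT values from -0.98 to 0.44 in medium and from -1.01 to 0.25 after stimulation. The part of these cells in the members' genotype differences was not tested.

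**Figure D4:**
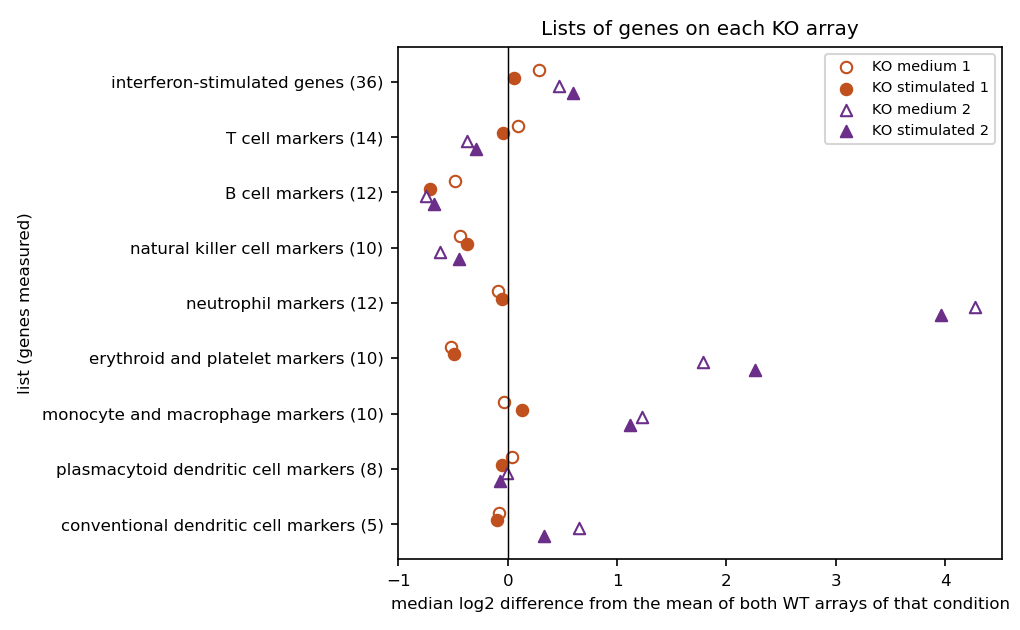
Median log2 difference of each gene list from the mean of both WT arrays of the same condition, for the 4 KO arrays (circles, replicate 1; triangles, replicate 2; open, medium; filled, stimulated). Neutrophil, erythroid and monocyte markers are high on replicate 2 only, and conventional dendritic cell markers are raised there by less. The median of the 36 antiviral genes is above 0 on both KO medium arrays.

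Without both KO arrays of replicate 2, the median of KO minus WT was 0.29 in medium, with 32 of 36 values positive, and 0.06 after stimulation, with 20 of 36 positive. The remaining KO medium array lay above both WT arrays for 30 of 36 members (83.3%), where it did for 29.6% of all genes. The remaining stimulated KO array did so for 19 of 36 (52.8%), against 31.4% of all genes, and lay below both for 14 (38.9%), against 44.0%. On that medium array Ifit1 was 1.12, Ifit3 1.08, Ifi44 1.07, Cmpk2 0.83 and Rtp4 0.81 above the WT mean, while Ifitm3 lay 0.44 below it, at a difference of -0.44. After stimulation Ifi44 (0.59), Rsad2 (0.55), Ifit3 (0.53), Cmpk2 (0.51) and Ifit1 (0.48) were the farthest above it. The difference in medium was therefore present on either KO array, and that after stimulation was close to 0 on replicate 1 over the whole group, though not for Ifit1 and Ifit3.

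For 16 members, Ifit1 and Ifit3 among them, both KO arrays lay above both WT arrays in medium and again after stimulation, where 4.35% of all genes did so. For 9 members they did so in neither condition, as did 78.3% of all genes. Arrays of the same replicate number may share an animal, which the labels do not say. The average over conditions counts such arrays as separate samples, so its standard errors and p-values may be too small. Averaged over conditions, the median of KO minus WT was 0.37, against -0.05 over all genes, and 33 values were positive. None was called (limma, smallest adjusted p = 0.126, for Ifit3), where 0.00661% of all genes were, and 16 members (44.4%) had an unadjusted p below 0.05, all higher in KO cells, against 8.18% of all genes. Ifit3 had an averaged difference of 0.87 ± 0.12 and Ifit1 of 0.96 ± 0.17 (adjusted p = 0.195). Usp18 (0.55 ± 0.13), Oasl2 (0.58 ± 0.14), Ifi44 (1.19 ± 0.30), Herc6 (0.34 ± 0.08), Adar (0.30 ± 0.08, but 0.09 by its further probe) and Dhx58 (0.62 ± 0.17) followed by p.

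**Figure D5:**
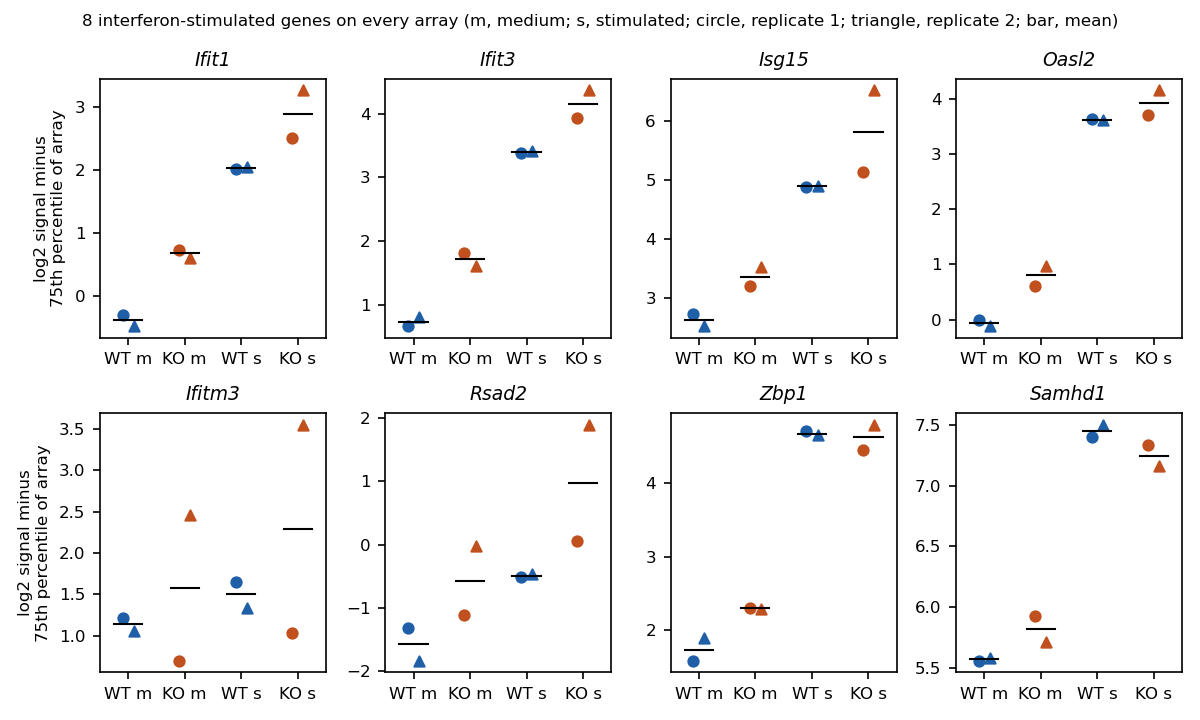
Log2 signal relative to the array's 75th percentile for 8 members on all 8 arrays (blue, WT; orange, KO; circles, replicate 1; triangles, replicate 2; bars, group means); the vertical axes differ between panels and do not start at 0. Ifit1 and Ifit3 step up from WT medium to KO medium, stimulated WT and stimulated KO cells, whereas for Ifitm3 the replicate 2 array of each KO group lies above and the replicate 1 array below both WT arrays. Rsad2 lies above WT on both KO arrays of each condition, and farther on replicate 2.

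No member's response to stimulation differed between genotypes by the test. The difference of the responses, KO minus WT, had a median of -0.10 over the members and 0.02 over all genes, with 16 values positive and 20 negative. None of the 36 was called (limma, smallest adjusted p = 1), where 0.00661% of all genes were, and 3 members (8.33%) had an unadjusted p below 0.05, all with the smaller response in KO cells, against 3.03% of all genes. These were Zbp1 (-0.61 ± 0.23), Samhd1 (-0.46 ± 0.18) and Dtx3l (-0.43 ± 0.17). Rtp4 (-0.52 ± 0.27), Oasl2 (-0.54 ± 0.28) and Ifi47 (-0.33 ± 0.17) were next by p, and Ifit2 (0.37 ± 0.20) and Herc6 (0.30 ± 0.17) had the opposite sign. Further probes gave -0.36 for Zbp1 and 0.07 for Herc6. For Zbp1, Rtp4 and Oasl2 the WT and KO values lay apart in medium and close together or overlapping after stimulation. With each array scaled by its median, 11 values were positive and 25 negative, against a median of -0.10 over all genes.

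Of 117 other genes of the pathway, 98 were tested, and 41 rose and 1 fell in WT cells, while 39 rose and none fell in KO cells. Over all genes 6.42% rose and 3.84% fell in WT cells, and 5.85% rose and 2.27% fell in KO cells. Among the ligands, Ifng, the interferon of activated T cells, was the only gene of 12 measured that rose, from 0.69 and 0.51 to 5.97 and 5.73 in WT (5.25 ± 0.53) and from 0.68 and 0.59 to 5.0 and 6.79 in KO cells (5.26 ± 0.53). By the scanner's call, all 12 measured ligands, Ifng included, were well above background on both WT medium arrays, and 10 or 11 of them on each other array. That call does not give a level. The summed linear level of all 12, scaled as for the neutrophil markers, was only 2.73 and 2.44 on the WT medium arrays, Ifng included. Ifnk, a dim ligand, had a mean log2 signal of -5.49 there. The call therefore does not show sizeable expression of each of these 12 genes. Among ligands outside these 12, Ifnb1 was well above background on 1 array of 8, and Ifna4, Ifna16 and Ifne on 0. None of the 6 receptor genes was called in either genotype (limma). In each, 3 (50%) had an unadjusted p below 0.05, all lower after stimulation. Over all genes, 29.5% in WT and 25.4% in KO cells had such a p, in either direction. The median of the 6 receptor genes was -0.31 in WT and -0.39 in KO cells, against -0.09 and -0.08 over all genes. Ifnar1 and Ifnar2 were well above background throughout.

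Of 12 genes that carry the signal from the receptors, 6 rose in WT and 7 in KO cells, led by Irf8 (2.70 ± 0.36 and 2.34 ± 0.36) and Irf7, the factor that amplifies interferon production (1.92 ± 0.19 and 1.84 ± 0.19). Stat2 (1.53 ± 0.12 and 1.56 ± 0.12) and Irf9 (0.83 ± 0.13 and 0.61 ± 0.13), named here for their role after their values were seen, rose in both genotypes. In medium their KO minus WT values were small, -0.07 for Stat2 and 0.09 for Irf9, while that of Irf7 was 0.44 ± 0.19. Of 6 negative regulators, 3 rose in each genotype, among them Socs1 (3.24 ± 0.18 and 3.05 ± 0.18) and Socs3 (1.65 ± 0.20 and 1.64 ± 0.20), which shut off cytokine receptors. Of 11 upstream sensors and adaptors, 3 rose in WT cells, with Tlr7 at 0.93 ± 0.15 and Myd88 at 0.86 ± 0.18, and Aim2 fell by 0.72 on the log2 scale. In KO cells none of the 11 was called (limma), with 6 (54.5%) at an unadjusted p below 0.05, against 25.4% of all genes.

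Of 39 further interferon-stimulated genes, 17 rose in each genotype, with a median of 0.53 in WT and 0.63 in KO cells, led by Ifit3b (2.60 ± 0.18 and 2.37 ± 0.18) and Parp12 (2.33 ± 0.32 and 1.82 ± 0.32). Ifit3b, a close copy of Ifit3, had KO minus WT values of 0.98 in medium and 0.76 after stimulation, nearly those of Ifit3, and whether both probes read both copies was not tested. Of 12 genes known for induction by interferon gamma, 11 rose in each genotype, with medians of 2.44 and 2.22, among them the chemokines Cxcl9 (5.55 ± 1.04 and 6.28 ± 1.04) and Cxcl10 (4.08 ± 0.62 and 4.34 ± 0.62). In medium the median of KO minus WT was 0.10 for the interferon gamma genes and 0.05 for the further interferon-stimulated genes, against 0.40 for the members, and after stimulation it was -0.09 and 0.10. None of the 98 was called in any genotype comparison (limma), where at most 0.0198% of all genes were. In medium 6 (6.12%) had an unadjusted p below 0.05, near the 5.71% of all genes. After stimulation 1 (1.02%) did, against 5.03% of all genes.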

How the data were processed

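The members and all gene lists were chosen with earlier results of these data known. Per the file headers, the authors' scanner files hold spot intensity on a linear scale, written by Feature Extraction 10.7.1.1, and the deposited processed signal has that program's background taken off. The headers name the design build mm9. The sources used here do not state how T cells were purified. RNA integrity numbers exceeded 9.5, per the labels' protocols.

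Log2 processed signals were centred on the array's 75th percentile over non-control spots. Control spots (3671 of 62976) and outlier spots were left out, repeated spots of a probe were averaged, and 37257 probes that exceeded background (scanner's call) on both arrays of any group were kept. Probes were named through unversioned RefSeq accessions (26056 of 55681 named; the table's assembly is GRCm38.p6), and each gene took its brightest probe. No member was saturated on an array.

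Each of the 4 groups had a mean in 1 fit over 8 arrays with limma 3.58.1 in R 4.3.3 (data.table version 1.17.8), leaving 4 residual degrees of freedom plus 2.11 from the moderated variance. Two-sided p-values had Benjamini-Hochberg adjustment over the 15139 genes of a contrast; an adjusted p below 0.05 was called. The script was tested on simulated data. Errors after ± are standard errors of the fit. The number of arrays limits the precision. Described on every array were the members with the largest difference of each role group on stimulation and the 8 with the smallest unadjusted p in each genotype comparison; of the pathway lists, the 2 called genes of largest absolute difference were named. Alternatives were other scalings, background corrections, filters, probe rules, fits, blocks and left-out arrays; the mean-signal column was not used, so normexp (offset 50) ran on the median signal. All 8 arrays share 1 slide and 1 scan.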

Additional observations from a re-analysis of the deposited data

Results flagged for a closer look

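For Samhd1 and Dtx3l, both KO arrays lay above both WT arrays in medium and below both after stimulation, which is opposite between the conditions. The KO minus WT difference of Samhd1 was 0.25 in medium and -0.21 after stimulation, a change of -0.46, and that of Dtx3l was 0.25 and -0.18, a change of -0.43. The change itself, tested as the genotype difference in response (limma), had an unadjusted p of 0.044 for Samhd1 and 0.049 for Dtx3l and did not pass after adjustment over all genes (adjusted p = 1 for both).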

How the results depend on the processing

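Under the alternatives tried, no direction of a called member was reversed, nor that of the members' median on stimulation or of KO minus WT. The median of the genotype difference in response, -0.10 in the main fit, did not keep its sign. It was positive without stimulated KO replicate 1. The number of members called on stimulation ranged from 13 to 26 in WT and from 17 to 29 in KO cells when 1 array was left out, and was 0 in KO cells when only the KO arrays were fitted. With only the WT arrays fitted, 29 members were called in WT cells. The median on stimulation in KO cells ranged from 1.17 to 1.79 with 1 array left out. The median of KO minus WT after stimulation ranged from 0.06 to 0.60 with 1 array left out, the lowest without stimulated KO replicate 2, and was 0.06 without both KO arrays of replicate 2. With the replicate number as a block, 25 members were called in each genotype; with it as a block within each genotype, 28 and 30. Deviations from the group mean correlated between same-numbered medium and stimulated arrays at r = 0.16 in WT and 0.74 in KO cells over all genes. Over the members r was 0.17 in WT and 0.89 in KO cells. These values do not show that the numbers pair the samples. Over single genes, 85 of the WT and 111 of the KO stimulation values fell short of the threshold under an alternative, against 655 and 589 that kept their side of it. Scaling each array by its median moved the median of all genes on stimulation in WT from -0.09 to 0.03 and that of KO minus WT in medium from -0.06 to 0.05, and the members' medians to 1.62 and 0.51. The count over all genes called on stimulation in WT was 1553, and 3003 without the filter on dim probes. A block for slide was not run, since all arrays share 1 slide.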
